A study of Mus musculus with 16 samples.

Results

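Nr4a1, Nr4a2 and Nr4a3 encode a small family of nuclear receptors, Nur77, Nurr1 and Nor1, for which no activating hormone is established. On this array each gene had 1 probe, so the family is 3 probes of 41174, found as every probe whose transcript accession maps to 1 of these 3 genes of 19096 named genes. The family was selected on the knockout comparison in brown fat, in which Nr4a2 had passed in an earlier analysis of these data. That comparison is therefore described here without a test, and the tests are kept to white fat and to the difference between the depots averaged over genotype.

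Nr4a genes are immediate-early genes: the RNA is made within minutes of a signal, without new protein synthesis, and is short-lived. The receptors bind DNA as monomers at the NBRE, a motif of nuclear receptors, or as dimers, and their activity is set largely by how much of them is made. In fat cells the best known inducer is noradrenaline, which acts through beta-adrenergic receptors, cAMP, protein kinase A and the factor CREB. Glucocorticoid receptor (GR) and Nr4a receptors are known to oppose each other at the Pomc gene of the pituitary.

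Total RNA came from female mice, from white fat (WAT, white adipose tissue) or brown fat (BAT, brown adipose tissue). The mice were either wild-type controls or animals with an adipose-tissue-specific knockout of GR, the product of Nr3c1. There were 4 Cy3-labelled arrays for each of WAT control, WAT knockout, BAT control and BAT knockout. The sources used here do not give the Cre driver, the deleted exons, the age, the position of the white depot or any treatment, and the design text describes the arrays of a group as biological replicates. WAT knockout arrays 1 and 2 differed by less than the noise between repeated spots and were counted as 1 sample (WAT knockout 1-2), which left 15 samples. Each slide held 1 array of each group at a position of that group's own, so array position and group cannot be told apart.

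A level is the log2 of the processed signal over the 75th percentile of its array, so 0 is the 75th percentile and 1 unit is a doubling. That percentile (mean ± SD, 4 arrays each) was 853 ± 130 for WAT control, 664 ± 119 for WAT knockout, 534 ± 26.1 for BAT control and 400.4 ± 106 for BAT knockout arrays, and 66.71% to 83.56% of probes exceeded background clearly. Precision is limited by how few arrays there are. By its brightest probe Nr3c1 was lower in the knockouts of both depots, by -0.66 ± 0.19 (SE) in WAT and -1.03 ± 0.18 in BAT. Neither passed over all features (limma, adjusted p = 0.211 and 0.0814). The dimmest Nr3c1 probe, near background, was not lower in WAT, with means of -4.59 in controls and -4.35 in knockouts. All other Nr3c1 readings were lower in knockouts. All 8 adipocyte markers were well above background on all arrays of every group. All 8 brown fat markers rose in BAT against WAT.

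The cAMP pathway reaches Nr4a genes through short promoter motifs, so the promoter sequences are shown first. In RefSeq (GRCm38.p6) Nr4a1 spans chr15:101253902-101274795, Nr4a2 spans chr2:57106830-57124003 and Nr4a3 spans chr4:48045078-48086447. The table of promoters used here holds 1 transcription start for each gene, and 250 bases before it were searched. For Nr4a1 the window is chr15:101266596-101266845 (plus strand), which lies inside the gene's span because a longer transcript starts upstream. For Nr4a2 it is chr2:57124004-57124253 (minus strand). For Nr4a3 it is chr4:48045055-48045304 (plus strand), of which 227 bases lie inside the gene's span, so for that gene only the 30 bases of chr4:48045086-48045115 with its closest pair of motifs are printed. Sequences run 5′ to 3′ along the gene, and capitals mark the core of the cAMP response element (TGACG, or CGTCA where it lies on the other strand).
Nr4a1: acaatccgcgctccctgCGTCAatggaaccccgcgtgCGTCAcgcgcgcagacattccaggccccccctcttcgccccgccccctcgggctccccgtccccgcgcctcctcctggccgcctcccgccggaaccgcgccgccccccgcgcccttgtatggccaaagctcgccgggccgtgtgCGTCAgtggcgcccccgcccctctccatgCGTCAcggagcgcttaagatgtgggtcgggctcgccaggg
Nr4a2: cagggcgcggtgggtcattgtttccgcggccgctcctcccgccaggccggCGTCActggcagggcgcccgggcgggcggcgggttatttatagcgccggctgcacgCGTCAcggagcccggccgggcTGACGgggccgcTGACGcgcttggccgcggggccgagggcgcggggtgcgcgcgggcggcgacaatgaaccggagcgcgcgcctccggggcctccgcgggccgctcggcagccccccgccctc
Nr4a3: ccatgtCGTCAcatTGACGtctcgcattcc

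All 3 windows held exactly 4 cores. In Nr4a1 the cores began 233, 213, 69 and 40 bases before the start, all on the other strand. In Nr4a2 they began 200, 144, 123 and 111 bases before it, and in Nr4a3 231, 213, 205 and 147 bases before it. Of all 32851 windows of the same length, 17.8% held at least 1 core and 0.137% held 4 or more. The windows were rich in G and C, at 74.4% in Nr4a1, 80.0% in Nr4a2 and 63.6% in Nr4a3. Among the 9178 windows with at least 60% G and C, 27.1% held a core and 0.37% held 4 or more. None of the 3 windows held the full palindromic element (TGACGTCA, in 1.55% of all windows), the NBRE (AAAGGTCA, 1.34%), the short glucocorticoid receptor motif TGTTCT (16.1%), the full glucocorticoid response element (0.009%) or the CArG box bound by Srf (1.47%). Both strands were searched, the full element contains the core, and a match is a run of letters and not a measured binding site.

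**Figure D1:**
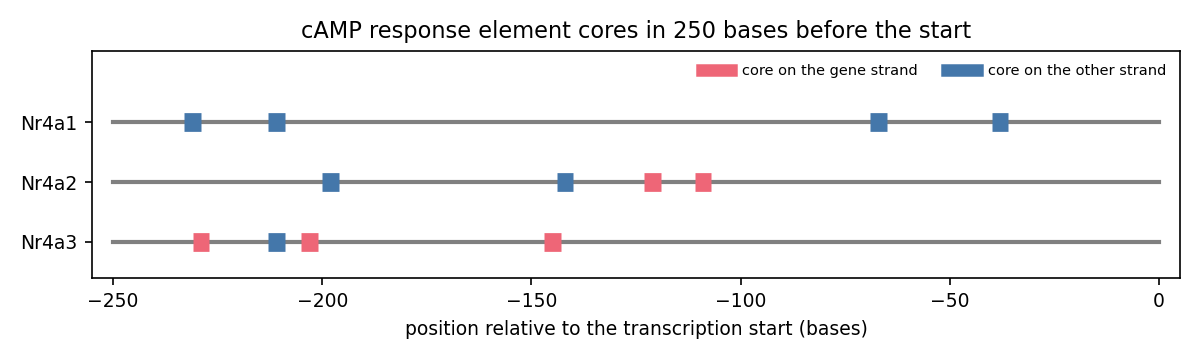
Cores of the cAMP response element (TGACG on either strand) in the 250 bases before the transcription start of each Nr4a gene. The x axis is the distance from the start in bases, and red and blue blocks are cores on the gene's strand and on the other strand. Each of the 3 windows holds 4 cores, and the one nearest to the start begins 40 bases before it, in Nr4a1.

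Nr4a3 was not measured in these tissues. Its probe was well above background on 0 of 16 arrays, with a processed signal between 3.01 and 14.9 (arbitrary units). The lowest signal that was well above background on an array lay between 13.97 and 33.4, and on no array did Nr4a3 reach its own array's value. The brightest readings were 14.9 on WAT knockout 3 and 8.56 on WAT control 1. The other 14 arrays read 4.52 or less. No level, fold or order of groups is given for Nr4a3, and 2 of the 3 genes entered the tests.

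Nr4a1, the founding member, was bright. Its probe was well above background and unsaturated on 16 of 16 arrays, with a signal from 2789 to 49056. Its level was 2.29, 2.61, 2.86 and 2.60 in WAT controls 1 to 4 (mean 2.59 ± 0.23 SD, n = 4). In WAT knockouts 1-2, 3 and 4 it was 3.27, 3.02 and 2.52 (2.94 ± 0.38, n = 3). All of these WAT samples lay within about 1 log2 unit of each other, and the genotypes overlapped. BAT controls 1 to 4 had Nr4a1 levels of 4.74, 6.36, 4.96 and 6.26 (5.58 ± 0.85, n = 4). Controls 1 and 3 were low and controls 2 and 4 high, which made this the most variable of the 4 groups. In BAT knockouts 1 to 4 it was 5.66, 6.14, 5.87 and 6.66 (6.08 ± 0.43, n = 4), between and just above the control values.

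Nr4a2, best known for its role in dopamine neurons, was also well above background and unsaturated on 16 of 16 arrays, with a signal from 257 to 4130. It stood at -1.05, -1.03, -1.48 and -1.48 in WAT controls 1 to 4 (-1.26 ± 0.25, n = 4). In WAT knockouts 1-2, 3 and 4 it was -1.46, -1.30 and -0.61 (-1.13 ± 0.45, n = 3). WAT knockout 4 was the highest WAT sample for Nr4a2, while the other 2 knockout samples lay among the controls. BAT controls 1 to 4 had Nr4a2 levels of 1.26, 1.66, 0.96 and 1.51 (1.35 ± 0.31, n = 4). In BAT knockouts 1 to 4 it was 3.07, 3.14, 2.62 and 3.09 (2.98 ± 0.24, n = 4). All 8 BAT samples lay above all 7 WAT samples, and within BAT all knockouts lay above all controls.

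**Figure D2:**
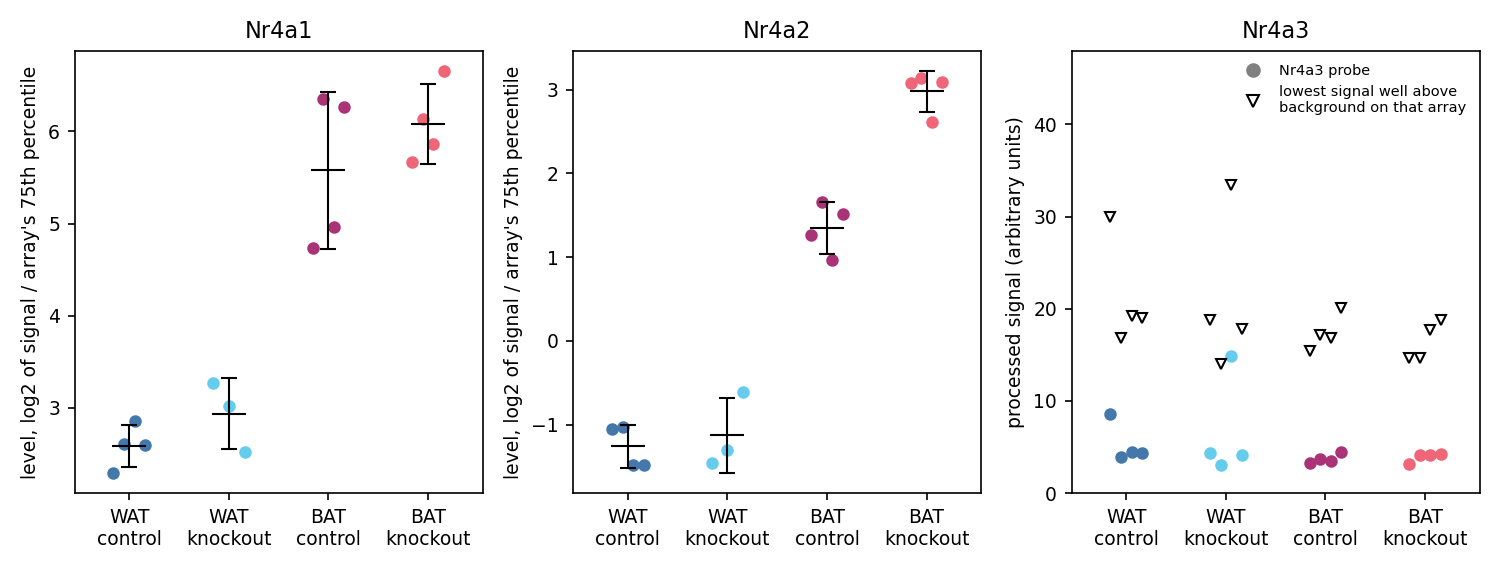
Levels of Nr4a1 and Nr4a2 (y axis, log2 of signal over the array's 75th percentile) in the 15 samples by group, with black bars for mean ± SD, and the processed signal of Nr4a3 on the 16 arrays (right, linear axis). Open triangles give the lowest signal well above background on each array, and all 16 Nr4a3 points lie under their own triangle. Nr4a1 and Nr4a2 are higher in every BAT sample than in every WAT sample, and only Nr4a2 has BAT knockouts that do not overlap BAT controls.

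For both measured members the difference between the depots was larger than either genotype difference. Averaged over genotype, Nr4a1 rose in BAT by 3.07 ± 0.27 (SE), which is 8.37-fold with a 95% confidence interval from 5.64 to 12.4 (limma, adjusted p = 8.165e-07). Nr4a2 rose by 3.36 ± 0.17, which is 10.2-fold with an interval from 7.96 to 13.2 (adjusted p = 9.995e-09). Over all 25105 features tested, 23.9% were called higher in BAT at an adjusted p under 0.05, so a call alone is common. By size Nr4a2 ranked 177 and Nr4a1 ranked 231 among those features from the highest. For both genes all BAT samples exceeded all WAT samples, which held for 11% of features. In bulk tissue a larger share of expressing cells and more RNA per cell cannot be told apart.

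Each slide held all 4 groups, so the same differences can be read within a slide. In controls, BAT exceeded WAT in Nr4a1 by 4.06, 2.35, 1.88 and 3.66 on slides 1 to 4. In knockouts the Nr4a1 difference was 2.64, 2.87, 3.35 and 3.37. For Nr4a2 it was 2.71, 1.99, 2.74 and 2.99 in controls and 4.38, 4.59, 3.23 and 4.57 in knockouts. All 16 within-slide differences between the depots were positive, the smallest being 1.88. They are not all separate, since the WAT knockout arrays of slides 2 and 4 were counted as 1 sample. In Nr4a2 the difference in knockouts exceeded that in controls on every slide, which contains the BAT genotype values that selected the family. The depot difference of Nr4a2 was 2.61 ± 0.23 in controls and 4.11 ± 0.25 in knockouts, and that of Nr4a1 was 2.99 ± 0.36 and 3.14 ± 0.39. These share samples with the averaged difference and are given as descriptions.

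**Figure D3:**
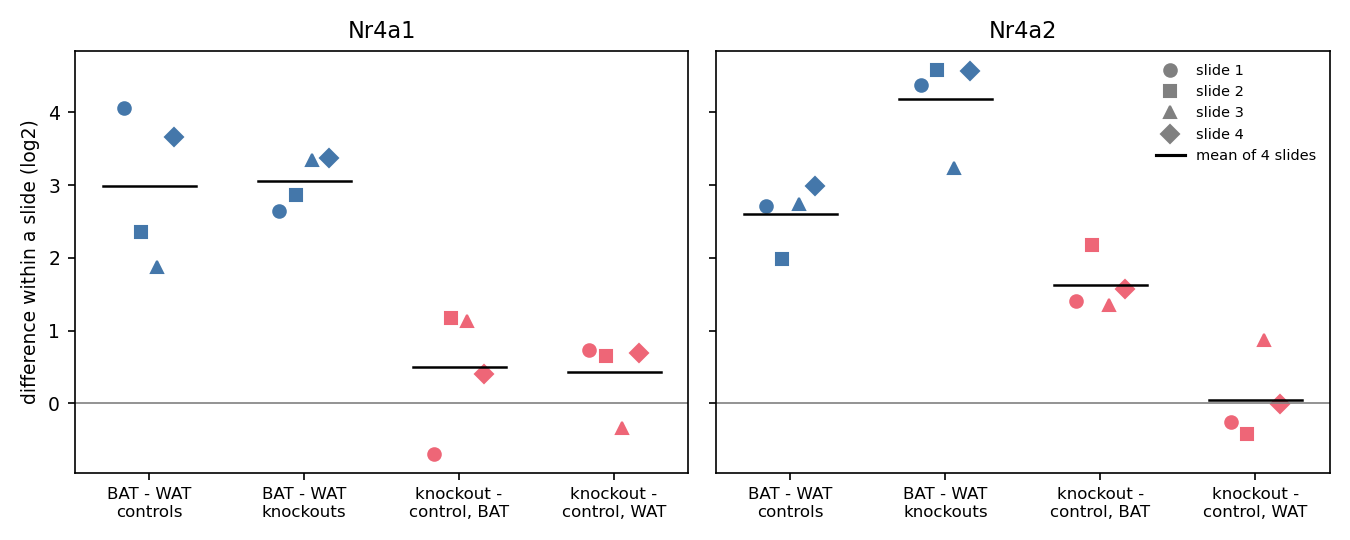
Differences of Nr4a1 (left) and Nr4a2 (right) between arrays of the same slide, in log2 units on the y axis, with 1 marker shape for each of 4 slides and a bar for their mean. Slides 2 and 4 hold the WAT knockout arrays that were counted as 1 sample. The depot differences (blue) are all above 1.8, Nr4a2 in BAT knockouts is above control on all 4 slides, and the other genotype differences (red) fall on both sides of 0.

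In WAT the question was whether loss of GR in adipose tissue went with a change of Nr4a RNA in white fat. No change was called. Nr4a1 was 0.35 ± 0.39 higher in knockouts, with a 95% confidence interval from -0.49 to 1.19 (limma, adjusted p = 0.576; exact two-sided permutation p = 0.2, adjusted over the 2 genes 0.4). Nr4a2 was 0.13 ± 0.25 higher, with an interval from -0.40 to 0.66 (limma, adjusted p = 0.741; exact two-sided permutation p = 0.629, also 0.629 after adjustment). The smallest p that the 35 arrangements of 4 against 3 samples allow is 0.0286. The intervals leave room for a rise of Nr4a1 above 2-fold, so the data do not show that the genotypes were alike. The median of all features was itself 0.24 higher in WAT knockouts, and relative to it Nr4a1 stood at 0.11 and Nr4a2 at -0.11. Of all features 0.0597% (15) were called in WAT. That count rested on WAT knockout 4: without it 9236 features were called, with Nr4a1 at 0.56 and Nr4a2 at -0.13 and neither called (adjusted p = 0.342 and 0.695). Without WAT controls 2 or 3 it was 48 or 52, and without WAT control 1, knockout 1-2 or knockout 3 it was 7, 8 or 8. Within slides 1 to 4 the WAT difference was 0.73, 0.66, -0.34 and 0.69 for Nr4a1 and -0.26, -0.42, 0.86 and -0.0049 for Nr4a2, and the slide with the opposite sign held WAT knockout 4. Slides 2 and 4 both held arrays of WAT knockout 1-2.

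WAT samples differed in their markers of other cell types, which are given beside the Nr4a levels. The summed level of 8 T cell markers ranged from 0.49 to 5.10 in WAT controls and from -0.16 to 6.32 in WAT knockouts. All 8 were higher in knockouts on average (median 1.23), 0 passed in limma and 2 had an unadjusted p under 0.05. WAT knockouts 1-2 and 3, with T cell sums of 6.32 and 6.04, had the 2 highest Nr4a1 levels in WAT, and knockout 4, with -0.16, had the second lowest. The summed level of 8 adipocyte markers ran the other way, at 9.13, 9.71 and 11.04 in WAT knockouts 1-2, 3 and 4 against 10.1 to 10.6 in controls. WAT knockout 4, the richest in adipocyte markers, had the highest Nr4a2 level in WAT. With the adipocyte marker level as a covariate the WAT difference was 0.20 for Nr4a1 and 0.38 for Nr4a2, and neither was called (limma, adjusted p = 0.800 and 0.370). B cell markers followed the T cell markers, with all 7 higher in knockouts (median 1.17, 0 called). Mesothelial markers were lower in WAT knockouts in 7 of 7 (median -2.99), of which Wt1 fell by 2.81 (limma, adjusted p = 0.0407). Their sums were 4.11 to 6.15 in controls and 0.17, 1.22 and 4.02 in knockouts 1-2, 3 and 4. Mast cell markers were lower in 5 of 5 (median -2.99), of which Cma1 fell by 3.30 (adjusted p = 0.0249). Smooth muscle markers were lower in 9 of 9 (median -1.24, 0 called) and macrophage markers in 9 of 10 (median -0.35, 0 called). Intestinal markers were lower in 7 of 8 (median -3.38, 0 called), with sums of 8.90 and 7.70 in WAT controls 1 and 4 against 1.85 to 3.06 in the other 5 WAT samples. In those 2 controls Nr4a1 was 2.29, the lowest in WAT, and 2.60, and Nr4a2 was -1.05 and -1.48. Among marker lists with 0 called, 3 adipocyte, 3 brown fat, 2 T cell and 1 B cell markers had an unadjusted p under 0.05. So had 1 endothelial, 5 smooth muscle, 4 macrophage and 6 intestinal markers. Over all features the share in WAT was 17.9%. The part of these other cell types in the Nr4a values was not tested.

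In BAT the values that selected the family can be described. Nr4a2 was 1.63 ± 0.23 higher in knockouts than in controls, which is 3.097-fold. The lowest knockout (2.62, knockout 3) exceeded the highest control (1.66, control 2). In this comparison 0.0159% of features (4) were called and in 9.35% all knockouts exceeded all controls. Nr4a2 selected the family through this comparison, so its place among these features is not given. The count of 4 became 0 to 85 when 1 sample was left out, with 85 without WAT knockout 4 and 79 without BAT knockout 4. Nr4a1 was 0.50 ± 0.36 higher with overlapping groups, and stood at 0.22 without BAT control 1 and 0.76 without BAT control 2. Relative to the median of all features, 0.10, the differences were 1.53 for Nr4a2 and 0.40 for Nr4a1. Within slides 1 to 4 the Nr4a2 difference was 1.41, 2.18, 1.36 and 1.57, whereas that of Nr4a1 was -0.69, 1.18, 1.13 and 0.40. The genotype difference in BAT minus that in WAT was 1.50 ± 0.34 for Nr4a2 and 0.15 ± 0.53 for Nr4a1. It is a description as well, since it contains the BAT values.

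Markers of other cell types also differed between the BAT groups and between depots, skeletal muscle the most among the BAT groups, and are given beside these values. All 14 measured muscle markers were well above background in BAT, all 14 rose in BAT against WAT (median 6.05), and all 14 were higher in BAT knockouts than in controls (median 2.04; limma called 0, and 9 had an unadjusted p under 0.05). Their summed level ran from 3.54 to 4.25 among WAT controls and from 2.41 to 4.83 among WAT knockouts, against 5.47 to 8.59 among BAT controls and 8.12 to 10.4 among BAT knockouts. BAT control 4 had by far the least muscle signal in BAT (5.47), and its Nr4a1 (6.26) and Nr4a2 (1.51) levels were the second highest of the BAT controls. On its slide BAT exceeded WAT by 3.66 in Nr4a1 and 2.99 in Nr4a2. BAT knockouts 1 and 4 had muscle sums of 8.12 and 8.13, inside the range of the controls, and Nr4a2 levels of 3.07 and 3.09. With muscle marker content as a covariate the depot difference was 4.02 ± 0.74 (SE) for Nr4a1 and 3.35 ± 0.51 for Nr4a2. Both were called (limma, adjusted p = 0.0205 and 0.00814), and the BAT genotype difference of Nr4a2 was 1.63. The muscle marker levels of WAT and BAT did not overlap, so this fit extrapolates between depots and cannot separate muscle from depot. Endothelial markers were higher in BAT knockouts in 9 of 10 (median 0.55; limma called 0, and 3 had an unadjusted p under 0.05). Their sums were 7.69, 7.31, 6.56 and 6.61 in BAT knockouts 1 to 4 against 6.14 to 6.59 in the controls. Knockout 3, inside the control range, had Nr4a2 at 2.62, and knockout 4, just above that range, had it at 3.09. Smooth muscle markers were higher in 9 of 9 (median 0.40) and B cell markers in 7 of 7 (median 0.26), with 0 called and 0 at an unadjusted p under 0.05. Over all features 13.1% had an unadjusted p under 0.05 in the BAT genotype comparison. Between depots all 10 macrophage, 7 B cell, 8 T cell and 7 mesothelial markers fell in BAT, opposite to Nr4a1 and Nr4a2. Of the 10 endothelial markers 5 rose and 1 fell. Over all features 23.9% were called higher in BAT and 20.8% lower. The part of these cell types in the Nr4a differences was not tested.

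**Figure D4:**
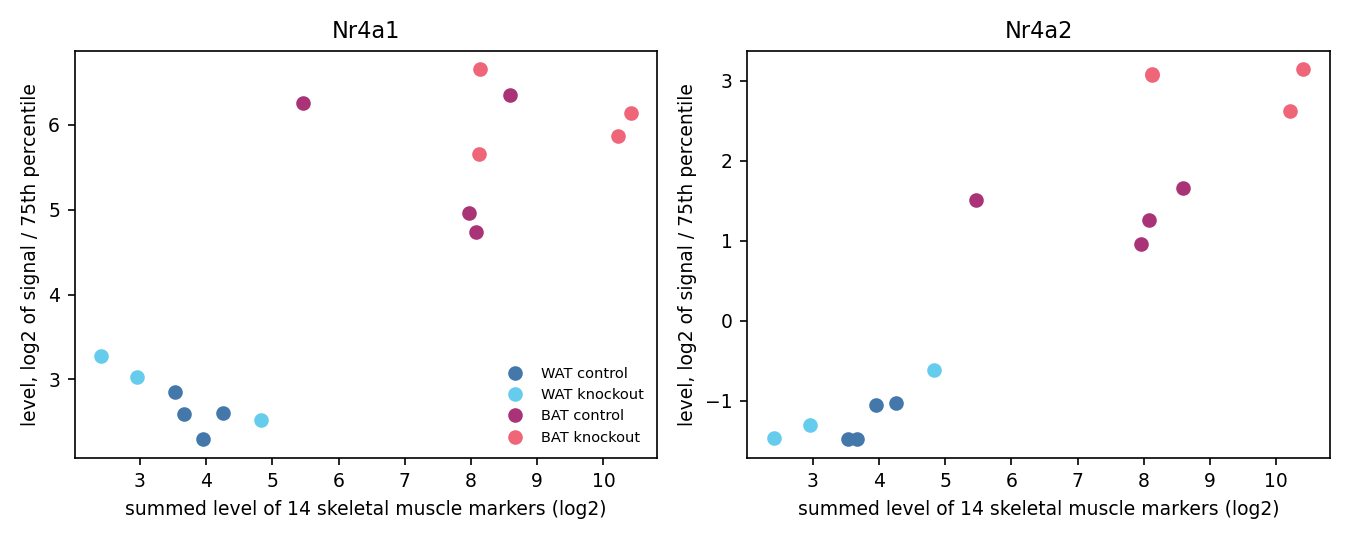
Level of Nr4a1 (left) and Nr4a2 (right) on the y axis against the summed level of 14 skeletal muscle markers on the x axis, both log2 relative to the array's 75th percentile, for the 15 samples coloured by group. BAT control 4, at a muscle sum of 5.47, has Nr4a levels among the other BAT controls. BAT knockouts 1 and 4, at 8.12 and 8.13, have Nr4a2 above every control.

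From sample to sample, Nr4a1 and Nr4a2 deviated from their group means mostly in the same direction in BAT and in opposite directions in WAT. Around the group means of BAT (n = 8) the deviations of Nr4a1 and Nr4a2 had a Pearson r of 0.695 (exact permutation p = 0.115) and a Spearman rho of 0.857 (exact permutation p = 0.104). Without BAT controls 1 and 2, the samples farthest from the median of Nr4a1, r was 0.664. Around the group means of WAT (n = 7) r was -0.882 (exact permutation p = 0.0486, 0.0972 after adjustment over the 2 depots) and rho was -0.821 (exact permutation p = 0.0833, 0.104 adjusted). Without WAT knockouts 1-2 and 4, the farthest samples there, r was -0.686 over 5 samples. Neither relation passed after adjustment, and the difference between the depots was not tested.

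The genes with the most similar pattern of levels were sought among 16649 named genes over the 15 samples, as a description dominated by the depot difference. Among the genes most like Nr4a1 were Chkb, a choline kinase (Pearson r = 0.961), Abcc4, a transporter that exports cyclic nucleotides (0.953), Pabpc4, a poly(A) binding protein (0.952), and Adssl1, the adenylosuccinate synthase of muscle (0.951). Among those most like Nr4a2 were Ccs, the copper chaperone of superoxide dismutase (0.976), Pde4a, a cAMP phosphodiesterase (0.968), Nepn (0.967) and Adcy9, an adenylyl cyclase (0.967). All 8 of these rose in BAT, by between 0.91 (Pabpc4) and 3.79 (Nepn). Nr4a1 and Nr4a2 had an r of 0.931 with each other. With group means removed, so that only spread within groups counts, their r was 0.173. On that measure Nr4a1 was closest to Xlr4b (0.806), Dusp10, a phosphatase of stress kinases (0.787), Filip1l (0.770), Clk1, a kinase of splicing factors (0.749), and Riok2 (0.747). Nr4a2 was closest to Dop1b (0.912), Hic2 (0.903), Scn3b, a sodium channel subunit (0.899), Jun, a subunit of AP-1 (0.890), and Nrarp, a regulator of Notch signalling (0.885).

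Other genes of the cAMP pathway were read in the same tests, from lists chosen with earlier results of these data known. The shares of these lists are therefore descriptions of the genes listed and not a test of cAMP-responsive genes as a class. Of 11 measured cAMP-responsive genes, 8 rose in BAT (72.7%, against 23.9% of all features) and 1 fell, with a median of 1.89. The uncoupling protein gene Ucp1 rose by 12.18, Dio2, the activating thyroid hormone deiodinase, by 5.64, Ppargc1a, the mitochondrial coactivator, by 4.25 and the phosphodiesterase Pde4d by 3.29. Ucp1 is also among the brown fat markers, so its rise in BAT was known beforehand. Its WAT levels were near background, which leaves the size of its rise uncertain. Pde4b, another phosphodiesterase, fell by 1.01. Of 19 genes for receptors, kinases and activators upstream of Nr4a transcription, 10 rose in BAT and 3 fell (median 0.39). The receptor gene Adrb1 rose by 3.38, the cyclase Adcy3 by 2.84, the G protein gene Gnas by 2.44 and the kinase subunit Prkaca by 2.06, while Creb1 fell by 0.62, Srf by 0.65 and Mef2c by 1.06.

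Immediate-early genes are the class to which Nr4a genes belong by their rapid induction. Of 26 other measured members 4 rose in BAT (15.4%, against 23.9% of all features), 5 fell, and the median was 0.05. Klf10 rose by 0.98 and Ier3 by 0.95, whereas Myc fell by 2.10 and Klf6 by 0.68. Fos (0.11), Egr1 (0.95) and Junb (-0.35) did not pass. In BAT knockouts 22 of 26 were higher than in controls with a median of 0.42 against 0.10 for all features. In that comparison limma called 0 of them, and 3 had an unadjusted p under 0.05 (Klf6, Ier2 and Maff), a share no higher than the 13.1% of all features. Egr3 stood at 1.25, Klf6 at 0.82, Ier2 at 0.80 and Maff at -0.95. BAT controls 1 to 4 had median deviations of the class of -0.17, -0.16, -0.30 and -0.39, while BAT knockouts 1 to 4 had 0.38, 0.36, -0.40 and 0.21, and knockout 3 was lowest among the knockouts both here and in Nr4a2. In WAT limma called 0 of 26 and 2 had an unadjusted p under 0.05 (median 0.15, against 0.24 for all features), with Egr3 at 1.19 and Fosl2 at -1.01.

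**Figure D5:**
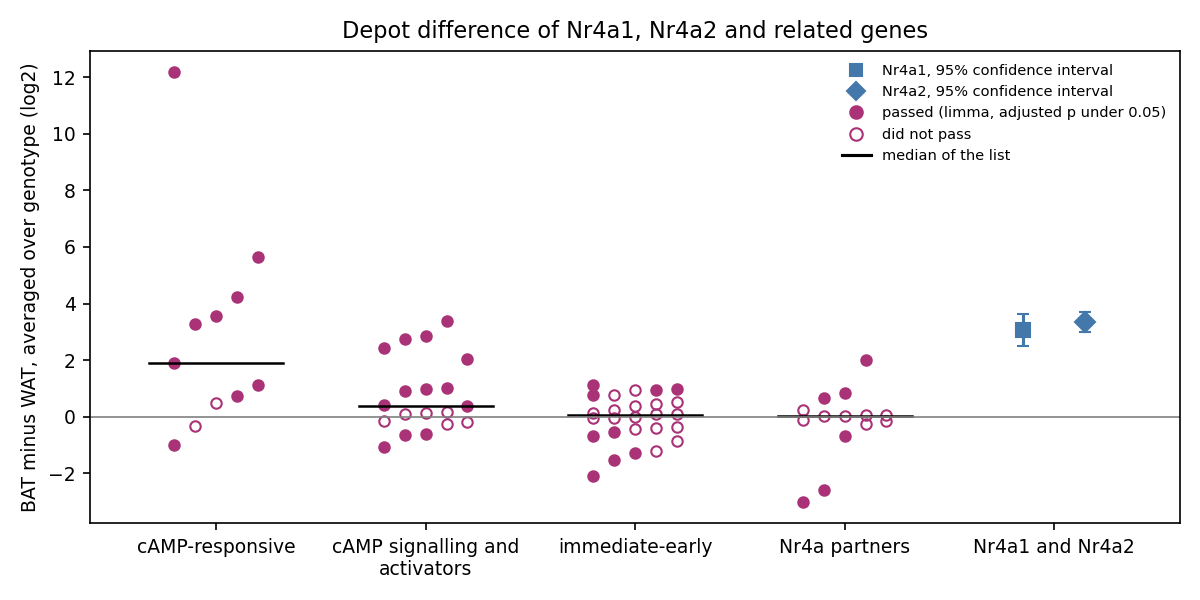
BAT minus WAT averaged over genotype (y axis, log2) for each measured gene of 4 lists, with filled points for genes called by limma, open points for the rest and a bar for the list's median, beside Nr4a1 and Nr4a2 with 95% confidence intervals. Nr4a1 (3.07) and Nr4a2 (3.36) lie above all 26 immediate-early genes and within the range of the cAMP-responsive genes, whose highest point is Ucp1.

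In both cAMP lists limma called 0 genes in either genotype comparison. At an unadjusted p under 0.05 there were 1 of 11 cAMP-responsive and 3 of 19 upstream genes in WAT, and 2 and 3 in BAT, where all features gave 17.9% in WAT and 13.1% in BAT, so these counts do not set the lists apart. In WAT the cAMP-responsive genes had a median of 0.08 and the upstream genes 0.07. The largest WAT differences were Ucp1 at 1.38, Pde4b at 1.31, Adrb1 at -1.33 and Prkar2b, a regulatory kinase subunit, at -1.14. Ucp1 was near background in WAT, at mean levels of -4.39 in controls and -3.02 in knockouts. In BAT the medians were 0.17 and -0.04. Pde4b stood at 1.07, Sik1, a kinase gene induced by cAMP, at 0.99, Mef2c at 1.19, Gnas at -0.82 and Adcy3 at -1.03. Nr4a2 in BAT stood at 1.63, but this value selected the family, so it is not ranked against these genes.

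Proteins that bind Nr4a receptors and genes reported as their targets complete the pathway. Of 14 partners 3 rose in BAT and 3 fell (21.4% each, against 23.9% and 20.8% of all features, median 0.03). The heterodimer partner genes Rxrg and Rxrb rose by 1.99 and 0.86, while Rxra stood at -0.12. Fhl2, a LIM domain protein, fell by 3.004 and Bcl2, which Nur77 binds at mitochondria, fell by 2.60. Of 9 reported targets 2 rose (22.2%) and 3 fell (33.3%), which differs from the shares of all features by about 1 gene (median -0.73). Ucp1 rose by 12.18 and Ucp3 by 2.68, whereas Vcam1 fell by 2.91 and Birc3 by 1.50, and Pomc did not pass at 0.29. In the genotype comparisons limma called 0 partners and 0 targets in WAT or BAT. At an unadjusted p under 0.05 there were 6 partners in WAT and 3 in BAT, and 0 targets in both, where all features gave 17.9% and 13.1%. In BAT the corepressor genes Rcor1 and Ncor1 stood at 0.82 and 0.65 and Bcl2 at 0.80, and in WAT Fhl2 stood at -1.12 and Bcl2 at 1.12.

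Genes whose promoter windows resemble those of the family were also read out. Apart from the Nr4a genes, 41 genes had a window with 4 or more cores, and 38 of them were tested here. Between depots 17 of 38 were called higher in BAT (44.7%) and 3 lower, with a median of 0.24. Among all 13232 tested genes with a window 28.3% were called higher and 2920 genes lower, with a median of 0.04. Among the 3532 with at least 1 core 33.4% were called higher and 671 genes lower, with a median of 0.12. These shares were not read among windows of like G and C content, so core number and base composition cannot be told apart. Ogdh, a subunit of the oxoglutarate dehydrogenase of mitochondria, rose by 3.23, and the other 37 genes lay between -1.19 (Chpf) and 1.87 (Trp53inp2). The depot differences of Nr4a1 and Nr4a2 were thus near or above the highest of the genes with as many cores. The list was chosen by sequence after the windows of the family had been read, and no test was made of it.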

How the data were processed

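Images were read with Agilent Feature Extraction 12.0.0.7, per the file headers. The deposited processed signal is an intensity that the authors' software background-subtracted and detrended within the array. The deposited raw median and background columns are intensity values as well, and the deposited spot flags are a further kind of value, either 0 or 1. The deposited value table, also an intensity, equals the processed signal averaged over a probe's spots in 658784 of 658784 values within a relative tolerance of 1e-04.

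From these, outlier spots were dropped, repeated spots averaged, and log2 of the signal minus the array's 75th percentile taken. Probes well above background on at least 3 of 4 arrays of 1 group were kept: 16675 named genes by their brightest probe (named through RefSeq accessions) and 8430 unnamed probes. limma 3.58.1 (R 4.3.3) fitted 1 mean per group, with Benjamini-Hochberg adjustment over all 25105 features and a threshold of 0.05. The fit was tested on simulated data in which the changed genes were known. Single genes in WAT had exact permutation tests.

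The family, the gene lists and the tests were chosen with earlier results of these data known. From each list the genes named are those with the largest changes (up to 4 each in WAT and BAT) and up to 4 called by smallest p; some genes under these rules are not reported here. Alternatives covered background correction, scaling, filter, slide, replicate number, probe choice, cell content and each sample left out. Other motifs or promoter lengths were not analysed here.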

Additional observations from a re-analysis of the deposited data

Results flagged for a closer look

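In 3 of 57 groups of 4 samples, 1 sample lay far from the others relative to the group's range, where chance gives about 1 in 20. Nr4a2 in BAT knockouts was lowest in knockout 3, at 2.6153 against 3.07 to 3.14 in the other 3. The median deviation of the upstream cAMP genes was lowest in BAT control 1, at 0.1367 against 0.29 to 0.30 in the other 3. The median deviation of the neuron markers was highest in WAT control 1, at 1.1298 against -0.29 to -0.07 in the other 3.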

How the results depend on the processing

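Nr4a1 and Nr4a2 kept the direction and the call of the depot difference under all 28 alternatives, between 2.53 and 4.02 for Nr4a1 and between 2.87 and 3.504 for Nr4a2. In BAT the genotype difference stayed between 0.22 and 0.84 for Nr4a1 and between 1.46 and 1.75 for Nr4a2 under 29 alternatives. Many of the alternatives could not move a genotype difference, so their number overstates how far it was tried. Leaving out a WAT sample cannot change the BAT difference, nor a BAT sample the WAT difference. The filters, a fit within the depot and, with 1 probe per gene, the probe choice could not move either. In WAT Nr4a1 lay between 0.18 and 0.56, never called. Nr4a2 in WAT changed sign in 2 of 29 alternatives, at -0.0081 when scaled to the array median and -0.1258 without WAT knockout 4, and leaving out 1 sample gave values from -0.1258 to 0.2982. The cause was not tested.

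Counts over all features moved more. In WAT (15) they were 1 with normexp, 61 scaled to the median, 24 with quantile normalization, 0 in a fit within the depot (where fewer samples were fitted), 25 with slide as a block, 278 with arrays 1 and 2 as 2 samples and 47 with the adipocyte covariate, and 7 to 9236 leaving out 1 sample. In BAT (4) they were 0 with normexp, without a filter, with the replicate block and with the muscle covariate, 12 within the depot, 2 with slide as a block, 22 with arrays 1 and 2 as 2 samples, 100 with the adipocyte covariate, 0 without BAT knockouts 1 and 2 (an alternative chosen after seeing the data) and 0 to 85 leaving out 1 sample. Between depots (11225) they were 7445 with normexp, 406 with the muscle covariate and 9927 to 13287 leaving out 1 sample.

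The labels give the groups the same replicate numbers. Deviations of same-numbered samples correlated between -0.473 and 0.306, not above 0.1 in every pair, so the numbers were not taken to pair samples. Between WAT and BAT controls same-numbered samples correlated at 0.051 to 0.177 and others at -0.106 to 0.042, a hint from the data that was not resolved. With the replicate block the WAT differences were 0.43 and 0.05, the BAT differences 0.50 and 1.63 and the depot differences 3.02 and 3.40 for Nr4a1 and Nr4a2. Nr4a3 enters the fit only without a filter, with values at background, and no difference is given for it.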
